A study of Homo sapiens with 12 samples.

Results

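The 36 genes described here encode aminoacyl-tRNA synthetases, 20 that work in the cytosol and 16 that work in mitochondria. They were picked by gene symbol, with earlier results of these data known, and each had 1 row among the 57773 genes of the count table. The cytosolic genes were AARS, CARS, DARS, EPRS, FARSA, FARSB, GARS, HARS, IARS, KARS, LARS, MARS, NARS, QARS, RARS, SARS, TARS, VARS, WARS and YARS. The mitochondrial genes, whose symbols end in 2, were AARS2, CARS2, EARS2, FARS2, HARS2, IARS2, LARS2, MARS2, NARS2, PARS2, RARS2, SARS2, TARS2, VARS2, WARS2 and YARS2. GARS and KARS each encode a cytosolic and a mitochondrial form from 1 gene and were counted with the cytosolic genes, as was QARS.

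Poly(A) RNA was sequenced from A549, an established human lung adenocarcinoma line, in 3 groups of 4 libraries. The groups were cells given siGOLM1-1, cells given siGOLM1-2, which is a second siRNA against GOLM1, and cells given a non-targeting control siRNA. GOLM1 encodes a transmembrane protein of the Golgi apparatus. Every culture received its siRNA at 50 nM by reverse transfection with a lipid reagent in the same serum-containing medium, and RNA was taken after 72 h. The labels call the 4 libraries of a group biological replicates without saying that they came from separate cultures, so p-values measure the spread between these libraries, which may be technical. The study rests on 1 cell line and transient knockdown.

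Each synthetase joins 1 amino acid to its own tRNAs, and the charged tRNAs then bring the amino acids to the ribosome. Cytosolic ribosomes and mitochondrial ribosomes draw on separate tRNA pools, so most amino acids have a cytosolic and a mitochondrial enzyme, both encoded in the nucleus. In the cytosol, EPRS, which charges both glutamate and proline, and the enzymes for aspartate, isoleucine, leucine, lysine, methionine, glutamine and arginine sit together in the multisynthetase complex on the scaffold proteins AIMP1, AIMP2 and EEF1E1. When amino acids run short or the endoplasmic reticulum is stressed, the transcription factor ATF4 binds composite C/EBP-ATF elements, and several cytosolic synthetase genes are known among its targets.

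Promoter sequences came from RefSeq (build GRCh38.p14) and covered 250 bases before to 50 bases after a transcription start, 300 bases in all. Of the 36 genes, 30 had at least 1 such window, with 39 windows in all. AARS2, DARS, LARS, VARS, VARS2 and YARS had none. The ATF4 composite element was searched as TGATGNAA on both strands, where N is any base. It was found in 7 of 16 cytosolic genes and in 1 of 14 mitochondrial genes, against 1270 of 35116 promoter windows in the whole table (3.62%). The members were counted by gene, and some have more than 1 window. These stretches of 30 bases around the matches are shown because they mark which synthetase promoters carry the letters of an ATF4 element; the capitals are the match, and each sequence is read 5′ to 3′ on the gene's own strand. The coordinates are those of the stretches.
AARS, chr16:70289675-70289704, minus strand: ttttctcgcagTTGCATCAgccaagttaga
CARS, chr11:3057407-3057436, minus strand: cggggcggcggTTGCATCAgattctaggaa
GARS, chr7:30594834-30594863, plus strand: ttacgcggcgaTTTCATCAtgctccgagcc
IARS, chr9:92293692-92293721, minus strand: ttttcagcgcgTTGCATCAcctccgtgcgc
MARS, chr12:57488053-57488082, plus strand: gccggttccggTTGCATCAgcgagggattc
NARS, chr18:57621804-57621833, minus strand: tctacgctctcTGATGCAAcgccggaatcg
TARS, chr5:33440956-33440985, plus strand: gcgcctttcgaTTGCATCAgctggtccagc
YARS2, chr12:32756076-32756105, minus strand: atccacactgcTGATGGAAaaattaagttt
All of the cytosolic matches but the one in NARS stand on the opposite strand, and the first base of the match lies between 33 bases before and 15 bases after the start in every cytosolic gene except AARS, where it lies 187 bases before it. A match describes the letters and does not show a working site.

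The promoters of HARS2 and MARS2 are printed whole, because the levels of HARS2 moved apart from those of its neighbour HARS and because MARS2 had the largest difference from control among the 36 genes. HARS and HARS2 are divergent neighbours whose annotated starts lie 85 bases apart on chromosome 5. In the HARS2 window (chr5:140691205-140691504, plus strand) the capitals mark the 184 bases that also lie in the HARS window. In the MARS2 window (chr2:197705119-197705418, plus strand) they mark matches to the motif of NRF1, a regulator of nuclear genes for mitochondria, which stand 133 and 27 bases before the start, and to the E-box CACGTG, which stands 11 bases before it.
HARS2: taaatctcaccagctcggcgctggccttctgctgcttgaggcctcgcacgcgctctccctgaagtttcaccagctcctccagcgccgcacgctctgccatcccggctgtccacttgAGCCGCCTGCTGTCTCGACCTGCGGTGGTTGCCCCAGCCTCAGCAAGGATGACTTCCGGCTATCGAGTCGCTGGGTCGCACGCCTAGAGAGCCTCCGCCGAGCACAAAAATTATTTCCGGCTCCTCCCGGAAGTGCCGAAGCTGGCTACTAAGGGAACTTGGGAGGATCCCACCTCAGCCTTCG
MARS2: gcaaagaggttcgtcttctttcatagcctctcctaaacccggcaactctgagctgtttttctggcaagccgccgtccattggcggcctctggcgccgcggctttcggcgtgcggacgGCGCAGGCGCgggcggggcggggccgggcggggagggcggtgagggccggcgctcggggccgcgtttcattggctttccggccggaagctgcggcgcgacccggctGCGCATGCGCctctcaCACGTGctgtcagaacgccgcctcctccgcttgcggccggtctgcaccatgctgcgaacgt
The NRF1 motif was found in 3 of 16 cytosolic genes (FARSB, SARS and TARS) and 3 of 14 mitochondrial genes (IARS2, MARS2 and PARS2), against 5.78% of all windows. The E-box was found in IARS and in CARS2, EARS2 and MARS2, against 7.26% of all windows. The interferon-gamma activated site, TTCNNNGAA, was found in CARS, TARS and WARS and in PARS2 and WARS2, against 7.66% of all windows. No match to one of the 4 motifs overlapped a match to another.

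GOLM1 itself, as counts-per-million (CPM) values, had 38.9, 38.7, 38.7 and 37.5 CPM with siGOLM1-1, 47.2, 44.7, 44.5 and 53.4 CPM with siGOLM1-2 and 372, 378, 371 and 344 CPM with control siRNA. It fell in every knockdown library, with log2 fold changes of -3.25 with siGOLM1-1 and -2.95 with siGOLM1-2. Library totals were 41617042 to 71344718 counts, and CPM were taken after TMM scaling, which corrects for differences in RNA composition. The keratins KRT7, KRT8 and KRT18, markers of epithelium, had 825 CPM or more in every library and CDH1 96.7 to 137 CPM, while EPCAM had 3.02 to 6.28 CPM. These epithelial markers summed to 5212.7 to 5634.4 CPM with siGOLM1-1, 6273.1 to 6645.9 CPM with siGOLM1-2 and 6600.4 to 9675.3 CPM with control siRNA. The part of this difference in the results was not tested. PTPRC, CD3E, CD68, VWF and DCN, markers of blood, endothelium and fibroblasts, had at most 0.15 CPM in any library. Together with the collagen genes COL1A1 and COL3A1 they summed to 48.61 to 93.36 CPM with siGOLM1-1, 24.37 to 37.45 CPM with siGOLM1-2 and 33.46 to 72.73 CPM with control siRNA, most of it COL1A1, and the part of COL1A1 in the results was not tested. Control libraries 1 and 2 stood apart from control libraries 3 and 4, for which the labels give no reason, so the counts below are also given against each of these pairs.

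In cells given siGOLM1-1, lower synthetase transcripts outnumbered higher ones in both compartments. Of 20 cytosolic genes, 2 were higher, 9 were lower and 9 did not pass the test (edgeR quasi-likelihood test, Benjamini-Hochberg adjusted p under 0.05 over 17532 genes). Of 16 mitochondrial genes, 0 were higher, 9 were lower and 7 did not pass. Over all genes tested, 23.7% were called higher and 23.8% lower, 47.5% in either direction, so the share of members called at all was near the background while its split was uneven. The median log2 fold change was -0.17 for the cytosolic genes and -0.23 for the mitochondrial genes, against -0.01 over all genes. No mitochondrial gene was higher at an unadjusted p under 0.05 or by DESeq2 either. All 4 libraries lay below all 4 control libraries for 10 cytosolic and 8 mitochondrial genes, where 20.4% of all genes did so. They lay above them for 1 cytosolic gene, AARS, where 20.6% of all genes did so. Against control libraries 1 and 2 alone, 7 cytosolic and 6 mitochondrial genes were called lower and AARS, CARS and SARS higher. Of all 18198 genes tested in that fit, 3580 were lower and 3675 higher. Against control libraries 3 and 4 alone, 9 of each were called lower and AARS higher. Of all 18206 genes tested in that fit, 3570 were lower and 3781 higher. Bulk RNA cannot tell fewer cells with a transcript from less of it in each cell.

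In cells given siGOLM1-2 no member was called higher. Of 20 cytosolic genes, 14 were lower and 6 did not pass the test, and of 16 mitochondrial genes, 8 were lower and 8 did not pass. Over all genes 21.8% were called higher and 23.2% lower, 45.0% in either direction. The median log2 fold change was -0.35 for the cytosolic genes and -0.26 for the mitochondrial genes, against -0.01 over all genes. By edgeR 0 members were higher at an unadjusted p under 0.05, and by DESeq2 0 were called higher. When libraries were scaled by their totals alone, however, CARS, HARS and SARS were called higher (log2 fold changes 0.20, 0.20 and 0.18). Under that scaling 4680 of all 17532 genes were called higher, and the median of all genes moved up to 0.07. All 4 libraries lay below all control libraries for 13 cytosolic and 7 mitochondrial genes (23.3% of all genes) and above them for none of either (22.6% of all genes). Against control libraries 1 and 2 alone, 11 cytosolic and 6 mitochondrial genes were called lower and 1 gene, CARS, higher. Of all 18198 genes tested in that fit, 3261 were lower and 3306 higher. Against control libraries 3 and 4 alone, 13 cytosolic and 9 mitochondrial genes were lower. Of all 18206 genes tested in that fit, 3458 were lower and 3652 higher. Both knockdown comparisons share the same 4 control libraries.

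**Figure D1:**
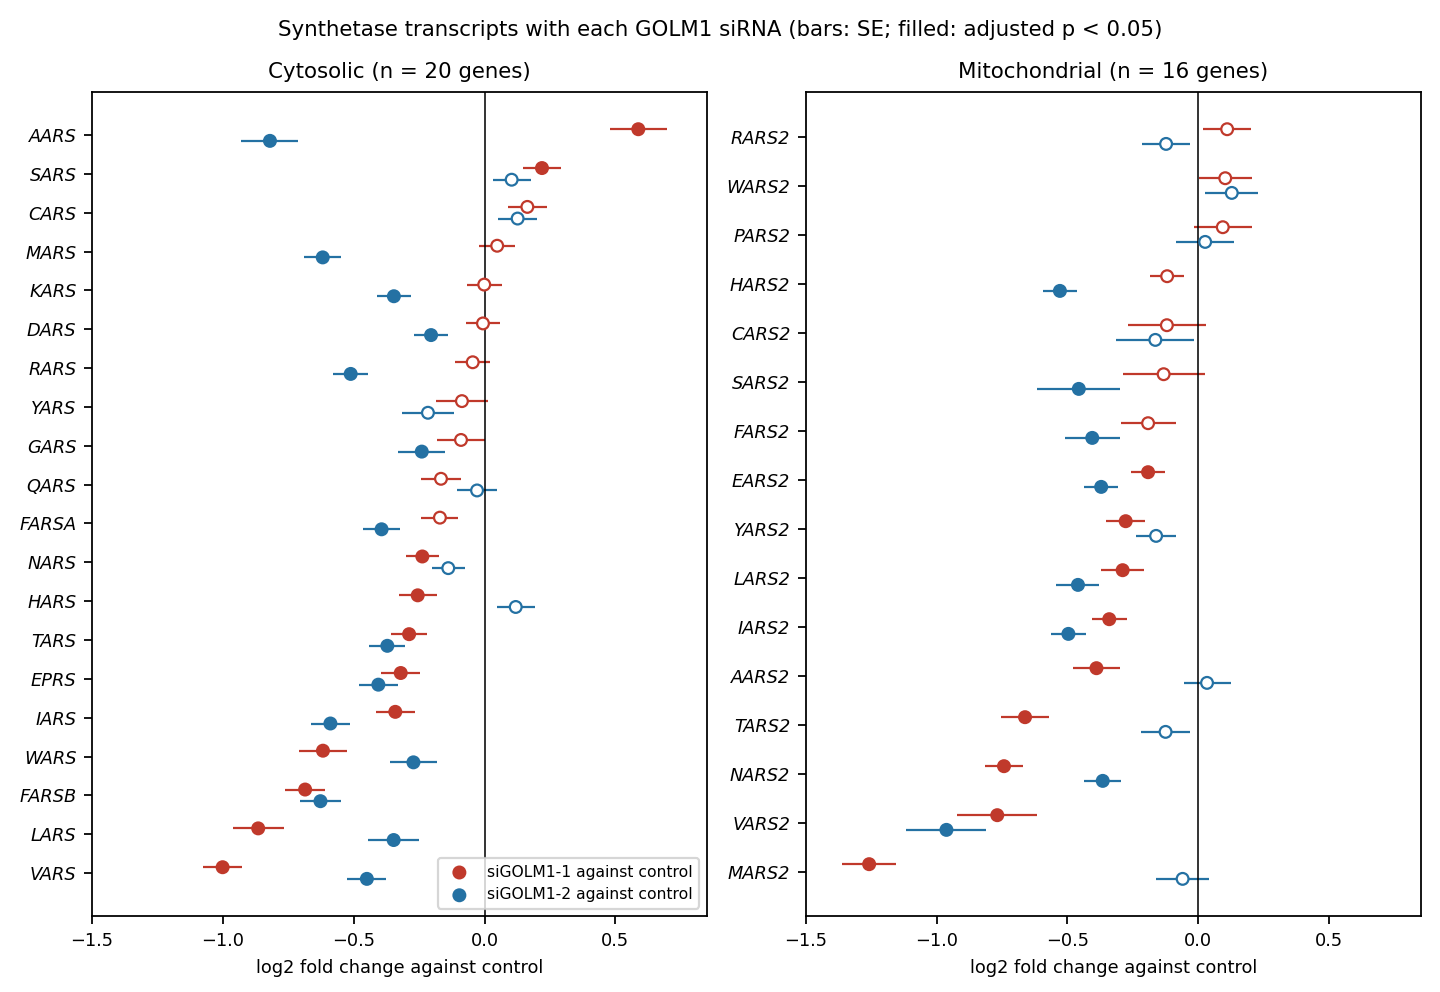
Log2 fold change against control siRNA (horizontal axis) of each cytosolic gene (left panel) and each mitochondrial gene (right panel), for siGOLM1-1 in red and siGOLM1-2 in blue. Bars are standard errors and filled points passed adjusted p under 0.05. AARS stands at 0.59 with siGOLM1-1 and at -0.82 with siGOLM1-2, and MARS2 at -1.26 and -0.06.

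The 2 siRNAs were also compared with each other, which uses no control library. Of the cytosolic genes, 7 were higher with siGOLM1-1 than with siGOLM1-2, 4 were lower and 9 did not pass, and of the mitochondrial genes, 3 were higher, 4 lower and 9 did not pass. Over all genes 27.9% were higher and 26.5% lower, 54.4% in either direction. The medians were 0.10 for the cytosolic and 0.11 for the mitochondrial genes with TMM scaling, but -0.03 and -0.02 when libraries were scaled by their totals alone. The sign of neither median thus held under both scalings. Under scaling by totals the median of all genes also moved, to -0.12 from 0.01, and the medians of both compartments were above it under each scaling. All siGOLM1-1 libraries lay above all siGOLM1-2 libraries for 5 cytosolic and 2 mitochondrial genes (24.2% of all genes) and below them for 4 of each (24.2% of all genes). At a fold of 1.5 or more, AARS and MARS differed among the cytosolic genes and MARS2 among the mitochondrial genes, where 35.4% of all genes did, and AARS and MARS2 differed by 2-fold or more, where 16.9% did.

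**Figure D2:**
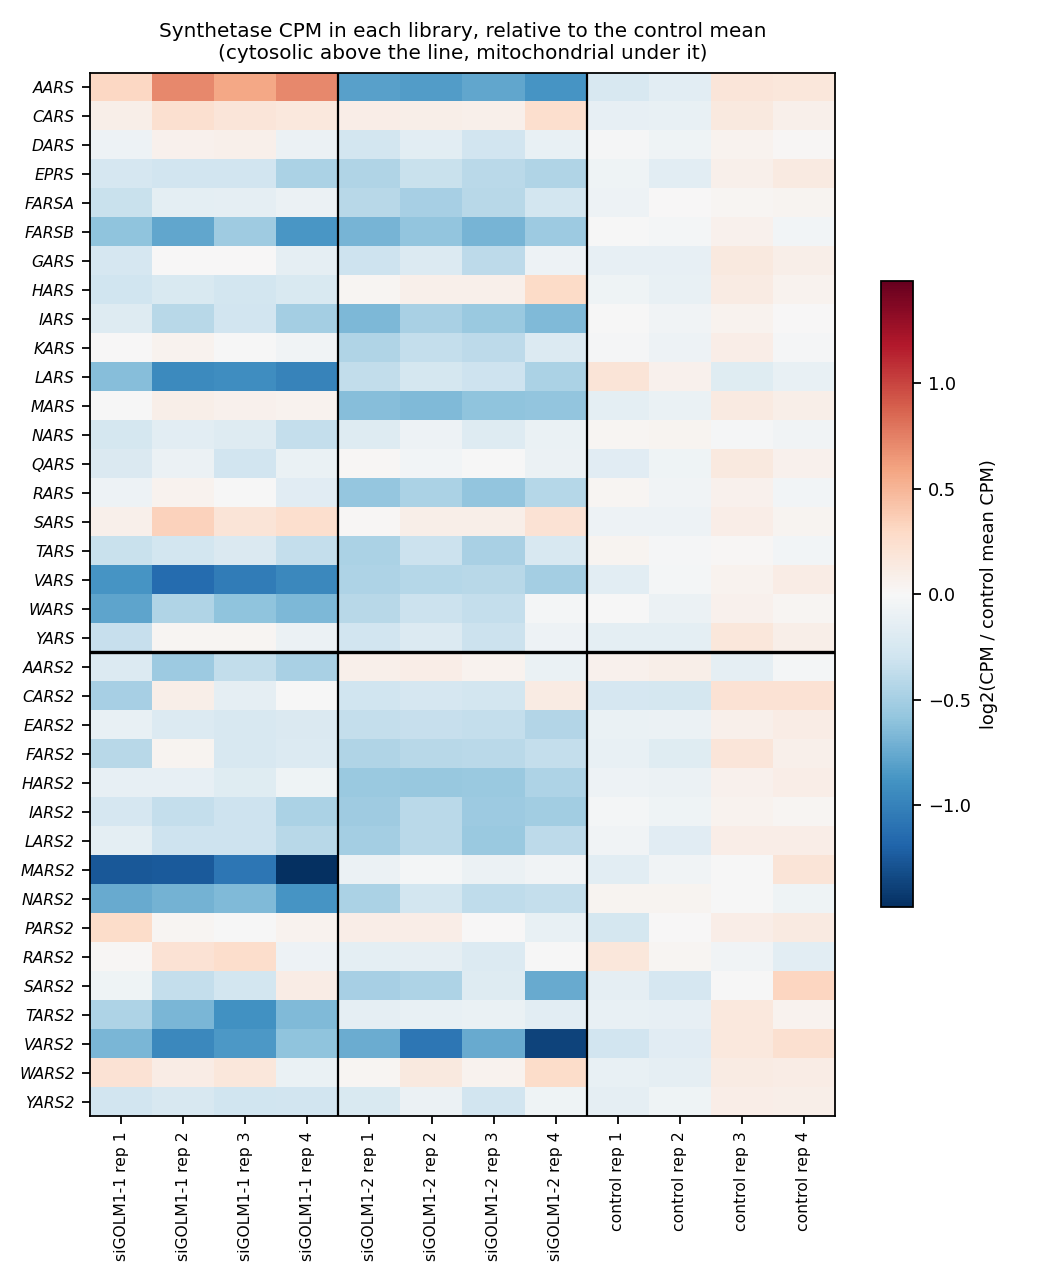
Level of each gene (rows) in each of the 12 libraries (columns) as log2 of its CPM over the control mean, red for higher and blue for lower. The AARS row is red across the siGOLM1-1 columns and blue across the siGOLM1-2 columns, and the MARS2 row is dark blue across the siGOLM1-1 columns alone.

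AARS, the cytosolic alanine enzyme, was the member on which the 2 siRNAs differed most. It had 379, 504, 458 and 504 CPM with siGOLM1-1, 176, 173, 179.6 and 167 CPM with siGOLM1-2 and 261, 276, 346 and 345 CPM with control siRNA. All siGOLM1-1 libraries were above all control libraries, and all siGOLM1-2 libraries were below them. It rose with siGOLM1-1 (0.59 on the log2 scale, SE 0.109, adjusted p = 0.000575) and fell with siGOLM1-2 (-0.82 on the log2 scale, SE 0.109, adjusted p = 4.7e-05), and the direct difference was 1.41 (SE 0.111, adjusted p = 1.96e-07). Its control libraries formed a low and a high pair. Against controls 1 and 2 alone the log2 fold changes were 0.78 and -0.63 for siGOLM1-1 and siGOLM1-2, and against controls 3 and 4 alone 0.43 and -0.97, all past the threshold. SARS, the serine enzyme, which also charges the selenocysteine tRNA, was the other member called higher with siGOLM1-1. It had 97.3, 117, 105 and 109.9 CPM with siGOLM1-1, 93.2, 97.7, 97.8 and 107 CPM with siGOLM1-2 and 87.7, 87.6, 98.4 and 94.8 CPM with control siRNA. The groups overlapped, and its rise of 0.22 (SE 0.0731, adjusted p = 0.0238) did not pass without control library 1, control library 2 or siGOLM1-1 library 2. Nor did the rise of SARS pass against control libraries 3 and 4 alone (adjusted p = 0.169). With siGOLM1-2 its log2 fold change was 0.10 (adjusted p = 0.269).

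VARS, the valine enzyme, had 75.8, 62.6, 67.4 and 71.2 CPM with siGOLM1-1, 101, 103, 104 and 97.4 CPM with siGOLM1-2 and 125, 136, 144 and 149.97 CPM with control siRNA. The 3 groups did not overlap, and siGOLM1-1 libraries were lowest. VARS fell with siGOLM1-1 (-1.0 on the log2 scale, SE 0.0753, adjusted p = 2.27e-07) and with siGOLM1-2 (-0.45 on the log2 scale, SE 0.0747, adjusted p = 0.000278). It was lower with siGOLM1-1 than with siGOLM1-2 (-0.55 on the log2 scale, SE 0.0749, adjusted p = 3.08e-05).

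LARS, the leucine enzyme, which also senses leucine for mTORC1 signalling, had 122, 98.5, 100.1 and 95.01 CPM with siGOLM1-1, 147, 158, 153 and 137 CPM with siGOLM1-2 and 217, 197, 167 and 176 CPM with control siRNA. Again the 3 groups stood apart in the same order. LARS fell with siGOLM1-1 (-0.86 on the log2 scale, SE 0.0972, adjusted p = 8.39e-06). With siGOLM1-2 the fall was smaller (-0.35 on the log2 scale, SE 0.0965, adjusted p = 0.00965) and did not pass under scaling by library totals alone or against control libraries 3 and 4 alone (log2 fold change -0.19, adjusted p = 0.162). The direct difference passed the test (-0.52 on the log2 scale, SE 0.0968, adjusted p = 0.000474).

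IARS, the isoleucine enzyme, had 327, 282, 306 and 264 CPM with siGOLM1-1, 235, 268, 254 and 237 CPM with siGOLM1-2 and 371, 361, 387 and 375 CPM with control siRNA. Every knockdown library was below every control library. IARS fell with siGOLM1-1 (-0.34 on the log2 scale, SE 0.0755, adjusted p = 0.00212) and with siGOLM1-2 (-0.59 on the log2 scale, SE 0.0757, adjusted p = 3.51e-05). The mitochondrial enzymes for the same 3 amino acids also fell with each siRNA: VARS2 (-0.77 with siGOLM1-1 and -0.96 with siGOLM1-2), LARS2 (-0.29 and -0.46) and IARS2 (-0.34 and -0.50). Thus 6 of 6 genes for the branched-chain amino acids were called lower with siGOLM1-1, with a median log2 fold change of -0.55, and 6 of 6 with siGOLM1-2, with a median of -0.48, where 23.8% and 23.2% of all genes were lower. This set was put together after its values were seen and carries no test.

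FARSB encodes the beta subunit of the cytosolic phenylalanine enzyme. It had 58.8, 52.4, 61.7 and 48.8 CPM with siGOLM1-1, 55.2, 59.3, 55.1 and 61.5 CPM with siGOLM1-2 and 88.9, 87.7, 93.3 and 86.9 CPM with control siRNA. All knockdown libraries were below all control libraries, and the 2 siRNA groups overlapped. FARSB fell with siGOLM1-1 (-0.69 on the log2 scale, SE 0.0773, adjusted p = 8.65e-06) and with siGOLM1-2 (-0.63 on the log2 scale, SE 0.0772, adjusted p = 2.46e-05). FARSA, the catalytic alpha subunit of the same enzyme, had 60.9, 69.00, 69.7 and 71.9 CPM with siGOLM1-1, 57.2, 54.3, 57.6 and 63.5 CPM with siGOLM1-2 and 72.3, 76.7, 77.9 and 78.5 CPM with control siRNA. Its siGOLM1-1 libraries too were below the controls, but the log2 fold change of -0.17 did not pass (adjusted p = 0.0606). It did pass under scaling by library totals alone (adjusted p = 0.00847), when genes were kept by CPM instead, and without siGOLM1-1 library 4. It also passed when replicate number was added to the fit (adjusted p = 0.0479). FARSA fell with siGOLM1-2 (-0.39 on the log2 scale, SE 0.0705, adjusted p = 0.000501).

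WARS, the tryptophan enzyme, is a known target of interferon-gamma. It had 73.9, 93.1, 84.1 and 80.00 CPM with siGOLM1-1, 95.4, 102, 99.3 and 124 CPM with siGOLM1-2 and 126, 119, 133 and 129 CPM with control siRNA. The siGOLM1-1 libraries were all below the controls, while siGOLM1-2 library 4 lay among the controls. WARS fell with siGOLM1-1 (-0.62 on the log2 scale, SE 0.091, adjusted p = 8.99e-05). The fall with siGOLM1-2 (-0.27 on the log2 scale, SE 0.0906, adjusted p = 0.0252) did not pass under scaling by library totals alone or when any of siGOLM1-2 libraries 1, 2 or 3 or control libraries 3 or 4 was left out. Nor did it pass against control libraries 1 and 2 alone (adjusted p = 0.145) or 3 and 4 alone (adjusted p = 0.0501). Of 14 interferon-gamma response genes tested, 6 were higher and 2 lower with siGOLM1-1, and 9 were higher and 2 lower with siGOLM1-2, among the higher TAP1 (log2 fold change 0.89), a peptide transporter, and B2M (0.99), the light chain of MHC class I. Over all genes 23.7% were higher and 23.8% lower with siGOLM1-1, and 21.8% were higher and 23.2% lower with siGOLM1-2.

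**Figure D3:**
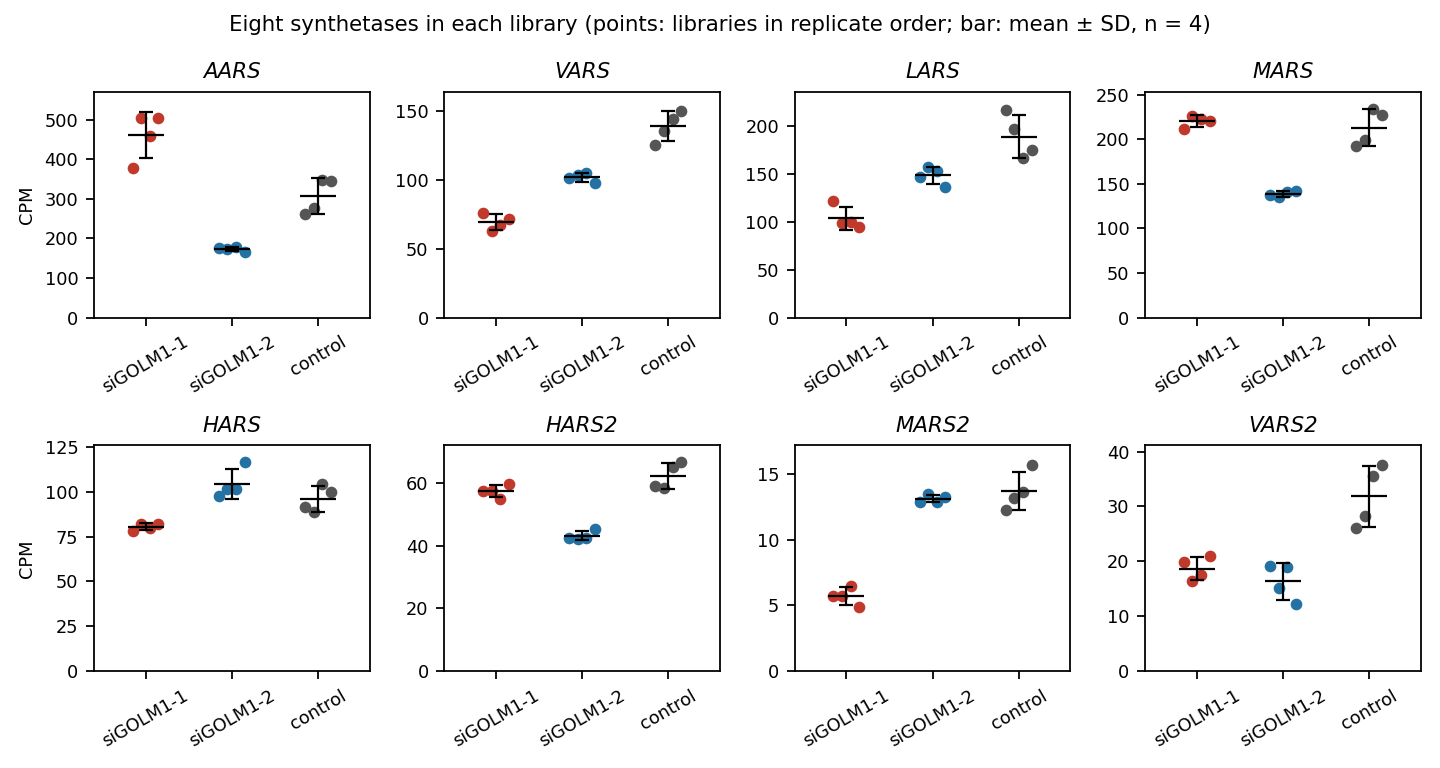
CPM of 8 synthetases in each library (points) with the mean and SD of each group of 4 (bars), siGOLM1-1 in red, siGOLM1-2 in blue and control siRNA in grey. VARS and LARS are lowest with siGOLM1-1, MARS and HARS2 with siGOLM1-2, and the control points of AARS and VARS2 form a low and a high pair.

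Among the enzymes of the multisynthetase complex, more genes were called with siGOLM1-2. With siGOLM1-1, 3 of 8 were lower (23.8% of all genes) and none was higher (23.7% of all genes), with a median log2 fold change of -0.11. With siGOLM1-2, 7 of 8 were lower (23.2% of all genes) and none was higher (21.8% of all genes), with a median of -0.38. Compared directly, 5 of the 8 were higher with siGOLM1-1 than with siGOLM1-2 (27.9% of all genes) and 1, LARS, was lower (26.5% of all genes), and the calls of DARS and IARS among the 5 were lost under scaling by library totals alone. MARS, the methionine enzyme, had 211, 226, 223 and 221 CPM with siGOLM1-1, 137, 135, 141 and 142 CPM with siGOLM1-2 and 192, 199, 234 and 227 CPM with control siRNA. Its siGOLM1-1 and control libraries overlapped, and its siGOLM1-2 libraries were below both. MARS fell with siGOLM1-2 (-0.62 on the log2 scale, SE 0.07, adjusted p = 1.2e-05) and had a log2 fold change of 0.05 with siGOLM1-1 (adjusted p = 0.594). The direct difference was 0.67 (SE 0.0701, adjusted p = 2.91e-06). MARS shares 5.05% of its annotated exon bases with DDIT3, a stress-response gene on the opposite strand, which is named here because of this overlap. It shares more, 7.38%, with ARHGAP9, also on the opposite strand, whose level was not examined. DDIT3 had 9.34 to 30.9 CPM with siGOLM1-1, 6.35 to 9.003 CPM with siGOLM1-2 and 6.34 to 7.47 CPM with control siRNA. The library kit marks strand, but the strand setting of the counting is not given in the sources used here. Reads of the shared bases could therefore count for MARS or for the gene it overlaps.

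RARS, the arginine enzyme, showed the same arrangement at 143, 156, 150.3 and 134 CPM with siGOLM1-1, 101, 108, 100.2 and 112 CPM with siGOLM1-2 and 153, 145, 157 and 146 CPM with control siRNA. It fell with siGOLM1-2 (-0.51 on the log2 scale, SE 0.0665, adjusted p = 3.87e-05), its log2 fold change with siGOLM1-1 was -0.05 (adjusted p = 0.6), and the direct difference passed (0.47, adjusted p = 4.75e-05). KARS, the lysine enzyme of both compartments, had 197, 204, 196 and 189 CPM with siGOLM1-1, 144, 154, 149.8 and 170.3 CPM with siGOLM1-2 and 195, 186, 210.4 and 195 CPM with control siRNA. The siGOLM1-2 libraries were below all others. KARS fell with siGOLM1-2 (-0.35 on the log2 scale, SE 0.0663, adjusted p = 0.000817) and had a log2 fold change of 0.00 with siGOLM1-1 (adjusted p = 0.989). EPRS fell with siGOLM1-1 (-0.32, adjusted p = 0.00325, but 0.0601 against control libraries 1 and 2 alone) and with siGOLM1-2 (-0.41, adjusted p = 0.000665). DARS, the aspartate enzyme, was called lower with siGOLM1-2 (-0.20, adjusted p = 0.0216), and the call was lost under scaling by library totals alone and without control library 3, siGOLM1-2 library 1 or siGOLM1-2 library 3. The DARS call was also lost with no filter on low counts and against control libraries 1 and 2 alone. QARS, the glutamine enzyme, had log2 fold changes of -0.17 with siGOLM1-1 (adjusted p = 0.0843) and -0.03 with siGOLM1-2 (adjusted p = 0.784), and with siGOLM1-1 it was called lower under scaling by library totals alone, against control libraries 3 and 4 alone and without control library 1.

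The scaffolds of the complex had lower levels with siGOLM1-2. EEF1E1 had 4.31, 5.49, 5.55 and 3.68 CPM with siGOLM1-1, 2.68, 3.05, 3.31 and 3.02 CPM with siGOLM1-2 and 7.04, 7.81, 6.67 and 6.299 CPM with control siRNA, and the 3 groups did not overlap. It fell with siGOLM1-1 (-0.55 on the log2 scale, SE 0.14, adjusted p = 0.00555) and with siGOLM1-2 (-1.20 on the log2 scale, SE 0.143, adjusted p = 1.81e-05). AIMP1 and AIMP2 fell with siGOLM1-2 (log2 fold changes -0.38 and -0.25, adjusted p = 0.000408 and 0.00893). With siGOLM1-1 their log2 fold changes were -0.12 (adjusted p = 0.147) and 0.06 (adjusted p = 0.511). All 3 scaffolds were higher with siGOLM1-1 than with siGOLM1-2 in the direct comparison, where 27.9% of all genes were. Against control all 3 were lower with siGOLM1-2, where 23.2% of all genes were. The scaffolds were not examined under the alternative scalings and filters.

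TARS, the threonine enzyme, fell with siGOLM1-1 (-0.29, adjusted p = 0.00332) and with siGOLM1-2 (-0.37, adjusted p = 6e-04). NARS, the asparagine enzyme, fell with siGOLM1-1 (-0.24, adjusted p = 0.00638, but 0.0672 against control libraries 3 and 4 alone) and had a log2 fold change of -0.14 with siGOLM1-2 (adjusted p = 0.0853). All of its knockdown libraries, at 152 to 175 CPM with siGOLM1-1 and 171 to 184 CPM with siGOLM1-2, lay below the controls at 188 to 201 CPM. GARS, the glycine enzyme of both compartments, was called lower with siGOLM1-2 (-0.24, adjusted p = 0.0439), a call that was lost by DESeq2 and when siGOLM1-2 library 1, 2 or 3 or control library 3 or 4 was left out. The GARS call was also lost with RLE in place of TMM scaling, under scaling by library totals alone and against control libraries 1 and 2 alone. CARS, the cysteine enzyme, and YARS, the tyrosine enzyme, passed the test in neither comparison, with log2 fold changes of 0.16 and -0.09 with siGOLM1-1 and 0.13 and -0.22 with siGOLM1-2. CARS was called higher with siGOLM1-1 when control library 3 was left out, and with either siRNA against control libraries 1 and 2 alone (log2 fold changes 0.28 with siGOLM1-1 and 0.24 with siGOLM1-2). YARS was called lower with siGOLM1-2 against control libraries 3 and 4 alone (log2 fold change -0.33, adjusted p = 0.0294).

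Of the 12 cytosolic genes outside the complex, 2 were higher and 6 lower with siGOLM1-1, and 0 were higher and 7 lower with siGOLM1-2. Over all genes 23.7% were higher and 23.8% lower with siGOLM1-1, and 21.8% were higher and 23.2% lower with siGOLM1-2, which is also the background of the splits that follow. The enzymes also fall into 2 structural classes, and each class held lower members. With siGOLM1-1, 4 of 9 class I genes and 4 of 10 class II genes were lower, and the higher genes AARS and SARS are both class II. With siGOLM1-2, 6 of 9 class I and 7 of 10 class II genes were lower. EPRS was left out of this split because it holds an enzyme of each class. Of the 8 genes with an ATF4 element in their promoter, 1 was higher and 4 were lower with siGOLM1-1, and 5 were lower with siGOLM1-2. Compared directly, 3 of the 8 were higher with siGOLM1-1, near the 27.9% of all genes, and none was lower, where 26.5% of all genes were.

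MARS2, the mitochondrial methionine enzyme, had the largest fall of the 36 genes. It had 5.72, 5.76, 6.52 and 4.89 CPM with siGOLM1-1, 12.9, 13.5, 12.9 and 13.2 CPM with siGOLM1-2 and 12.2, 13.1, 13.7 and 15.7 CPM with control siRNA. The siGOLM1-1 libraries were below all others, and the siGOLM1-2 and control libraries overlapped. MARS2 fell with siGOLM1-1 to a fold of 0.42 (-1.26 on the log2 scale, SE 0.103, adjusted p = 4.81e-07). With siGOLM1-2 its log2 fold change was -0.06 (SE 0.0999, adjusted p = 0.654), and the direct difference was -1.20 (SE 0.103, adjusted p = 4.41e-07). Its partner MARS differed the other way between the siRNAs.

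VARS2, the mitochondrial valine enzyme, had 19.8, 16.3, 17.6 and 21.04 CPM with siGOLM1-1, 19.1, 15.1, 18.9 and 12.3 CPM with siGOLM1-2 and 26.1, 28.3, 35.5 and 37.5 CPM with control siRNA. All knockdown libraries were below the controls, and the control libraries formed a low and a high pair. VARS2 fell with siGOLM1-1 (-0.77 on the log2 scale, SE 0.152, adjusted p = 0.000949) and with siGOLM1-2 (-0.96 on the log2 scale, SE 0.153, adjusted p = 0.000195). Against controls 1 and 2 alone the log2 fold changes were -0.54 with siGOLM1-1 and -0.74 with siGOLM1-2, against controls 3 and 4 alone -0.95 and -1.14. VARS2 shares 22.0% of its exon bases with GTF2H4 on the same strand, so its counts are uncertain where the authors' counting could split them.

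NARS2, the mitochondrial asparagine enzyme, had 19.4, 19.98, 20.5 and 17.7 CPM with siGOLM1-1, 23.4, 26.9, 24.98 and 25.4 CPM with siGOLM1-2 and 33.3, 33.4, 32.2 and 30.9 CPM with control siRNA. The 3 groups did not overlap. NARS2 fell with siGOLM1-1 (-0.74 on the log2 scale, SE 0.0719, adjusted p = 2.23e-06) and with siGOLM1-2 (-0.37 on the log2 scale, SE 0.0714, adjusted p = 0.000962), and the direct difference passed (-0.38, adjusted p = 0.00054). TARS2, the mitochondrial threonine enzyme, had 30.7, 26.3, 22.6 and 26.8 CPM with siGOLM1-1, 38.3, 38.8, 39.4 and 37.9 CPM with siGOLM1-2 and 39.1, 38.6, 47.1 and 43.7 CPM with control siRNA. Its siGOLM1-1 libraries were below the rest. TARS2 fell with siGOLM1-1 (-0.66 on the log2 scale, SE 0.0928, adjusted p = 5.88e-05), had a log2 fold change of -0.13 with siGOLM1-2 (adjusted p = 0.29), and differed directly by -0.54 (adjusted p = 0.000247).

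AARS2, the mitochondrial alanine enzyme, had 17.7, 13.9, 15.8 and 14.6 CPM with siGOLM1-1, 21.4, 21.7, 21.1 and 18.98 CPM with siGOLM1-2 and 21.2, 21.6, 18.5 and 19.96 CPM with control siRNA. Its siGOLM1-1 libraries were below all others, and the siGOLM1-2 and control libraries overlapped. AARS2 fell with siGOLM1-1 (-0.39 on the log2 scale, SE 0.0902, adjusted p = 0.00289), the opposite of AARS, and its log2 fold change with siGOLM1-2 was 0.03 (adjusted p = 0.789). IARS2, the mitochondrial isoleucine enzyme, had 262, 244, 252 and 224 CPM with siGOLM1-1, 216, 236, 214 and 217 CPM with siGOLM1-2 and 304, 299, 323 and 319 CPM with control siRNA. Every knockdown library was below every control library. IARS2 fell with siGOLM1-1 (-0.34 on the log2 scale, SE 0.066, adjusted p = 0.000814) and with siGOLM1-2 (-0.50 on the log2 scale, SE 0.0661, adjusted p = 4.66e-05).

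Of the other mitochondrial genes, EARS2, the glutamate enzyme, was called lower with siGOLM1-1 (-0.19, adjusted p = 0.0267) and with siGOLM1-2 (-0.37, adjusted p = 0.000452). The first of these calls was lost when siGOLM1-1 library 2, 3 or 4 or control library 3 or 4 was left out. It was also lost with no filter on low counts, with only the groups compared and against control libraries 1 and 2 alone. LARS2, the leucine enzyme, had adjusted p = 0.0102 with siGOLM1-1 and 0.00049 with siGOLM1-2. YARS2, the tyrosine enzyme, fell with siGOLM1-1 (-0.28, adjusted p = 0.00767), and FARS2, the phenylalanine enzyme, fell with siGOLM1-2 (-0.41, adjusted p = 0.00656). The calls of LARS2 and YARS2 with siGOLM1-1 and that of FARS2 with siGOLM1-2 did not pass against control libraries 1 and 2 alone. With siGOLM1-2, YARS2 was not called (-0.16, adjusted p = 0.0948) but passed against control libraries 3 and 4 alone (-0.23, adjusted p = 0.047).

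SARS2, the serine enzyme, was called lower with siGOLM1-2 (-0.46, adjusted p = 0.0306) at 3.12 to 4.598 CPM against 4.42 to 6.52 CPM with control siRNA. The groups overlapped, and the call was lost when siGOLM1-2 library 1, 2 or 4 or control library 3 or 4 was left out. The SARS2 call was also lost under scaling by library totals alone and against control libraries 1 and 2 alone. SARS2 shares 46.2% of its exon bases with a readthrough gene on the same strand, so its counts are uncertain. CARS2, PARS2, RARS2 and WARS2, the enzymes for cysteine, proline, arginine and tryptophan, did not pass against control with either siRNA, with log2 fold changes between -0.12 and 0.11 with siGOLM1-1 and between -0.16 and 0.13 with siGOLM1-2. The share of counts from genes encoded in the mitochondrial genome was lower in every siGOLM1-1 library than in every control library, while siGOLM1-2 and control libraries overlapped. It was 4.096% ± 0.70 with siGOLM1-1, 6.013% ± 1.14 with siGOLM1-2 and 6.28% ± 1.31 with control siRNA (SD, n = 4 each), and its part in the results was not tested.

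HARS and HARS2 charge histidine in the cytosol and in mitochondria from the shared promoter region printed above. HARS had 78.2, 81.9, 79.8 and 82.1 CPM with siGOLM1-1, 97.7, 101, 101 and 117 CPM with siGOLM1-2 and 91.6, 88.6, 104 and 99.8 CPM with control siRNA. Its siGOLM1-1 libraries were below all others. HARS2 had 57.4, 57.4, 54.9 and 59.5 CPM with siGOLM1-1, 42.5, 42.1, 42.6 and 45.4 CPM with siGOLM1-2 and 59.02, 58.5, 64.9 and 66.6 CPM with control siRNA. Here the siGOLM1-2 libraries were below all others. HARS fell with siGOLM1-1 (-0.26 on the log2 scale, SE 0.0725, adjusted p = 0.0103), though against control libraries 1 and 2 alone it did not pass (log2 fold change -0.16, adjusted p = 0.145), and its log2 fold change with siGOLM1-2 was 0.12 (adjusted p = 0.198). HARS2 fell with siGOLM1-2 (-0.53 on the log2 scale, SE 0.0639, adjusted p = 2.07e-05) and had a log2 fold change of -0.12 with siGOLM1-1 (adjusted p = 0.139), which passed under scaling by library totals alone. The direct differences had opposite signs, -0.37 for HARS (adjusted p = 0.000624) and 0.41 for HARS2 (adjusted p = 0.000104). The genes share 11.7% of the HARS2 exon bases on opposite strands.

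Other members also share a promoter window with a neighbour, and the difference between member and neighbour was not tested. TERF2IP, a telomere protein gene across from KARS, rose with siGOLM1-2 (log2 fold change 0.42, adjusted p = 8.75e-05), where KARS fell. WDR25 rose with siGOLM1-1 (0.51, adjusted p = 0.00173) and with siGOLM1-2 (0.39, adjusted p = 0.0112), where WARS fell. ORC3, which encodes a subunit of the origin recognition complex, fell with siGOLM1-1 (-0.60, adjusted p = 0.000996) and with siGOLM1-2 (-0.88, adjusted p = 5.91e-05), while RARS2 did not pass in either. MRPS12, a mitochondrial ribosomal protein gene across from SARS2, fell with siGOLM1-1 (-0.33, adjusted p = 0.00722) and had a log2 fold change of 0.20 with siGOLM1-2 (adjusted p = 0.0769). UBFD1, across from EARS2, rose with siGOLM1-1 (0.25, adjusted p = 0.0034), where EARS2 fell, and fell with siGOLM1-2 (-0.30, adjusted p = 0.000981), as EARS2 did. LYRM4, across from FARS2, did not pass in either (-0.05 with siGOLM1-1 and -0.12 with siGOLM1-2), nor did TARS1-DT, a transcript across from TARS at under 1 CPM in the mean of each group (0.04 and -0.35).

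The ratio of a cytosolic gene's count to its mitochondrial partner's count in the same library does not depend on library scaling. It was taken for 14 amino acids and is given without a test. For methionine, MARS over MARS2 averaged 38.7 with siGOLM1-1 (34.2 to 45.1), 10.6 with siGOLM1-2 (10.0 to 10.9) and 15.6 with control siRNA (14.5 to 17.1). For alanine, AARS over AARS2 averaged 29.7 with siGOLM1-1 (21.4 to 36.2), 8.37 with siGOLM1-2 (7.97 to 8.79) and 15 with control siRNA (12.3 to 18.7). In both pairs the 3 groups stood apart, with siGOLM1-1 highest and siGOLM1-2 lowest. HARS over HARS2 had the opposite order, at 1.40 with siGOLM1-1 (1.36 to 1.45), 2.41 with siGOLM1-2 (2.30 to 2.57) and 1.54 with control siRNA (1.5 to 1.61). VARS over VARS2 had that order too, at 3.71 with siGOLM1-1, 6.31 with siGOLM1-2 and 4.39 with control siRNA.

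WARS over WARS2 was below control in every library of both siRNAs, at 7.87 with siGOLM1-1, 9.79 with siGOLM1-2 and 13.0 with control siRNA. NARS over NARS2 was above control in every library, at 8.53, 7.04 and 6.01 in the same order of groups. The pairs for isoleucine (1.20 with siGOLM1-1, 1.13 with siGOLM1-2 and 1.20 with control siRNA) and phenylalanine (FARSA over FARS2, 5.05, 4.99 and 4.98) overlapped in all 3 groups. Over the 14 pairs, all siGOLM1-1 libraries were above all controls in 3 and below in 4, and all siGOLM1-2 libraries were above in 4 and below in 4. For single genes the levels did not overlap control in 41.0% of all genes with siGOLM1-1 and in 45.9% with siGOLM1-2. Between the 2 siRNAs, 5 pairs were higher with siGOLM1-1 and 4 lower without overlap, where 48.4% of single genes did not overlap.

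**Figure D4:**
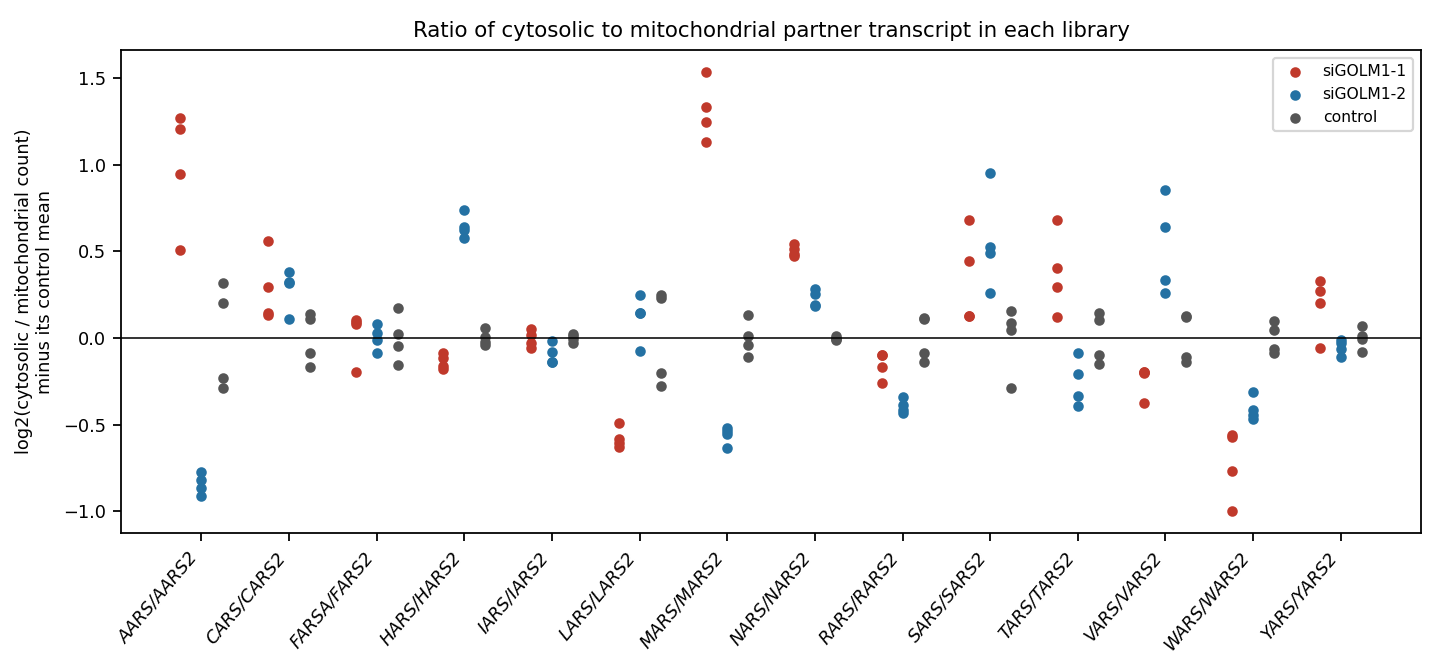
Log2 ratio of cytosolic to mitochondrial count for 14 amino acids (horizontal axis) in each library, minus the mean of the control libraries, with siGOLM1-1 in red, siGOLM1-2 in blue and control siRNA in grey. The alanine and methionine pairs lie above 0 with siGOLM1-1 and below it with siGOLM1-2, and the isoleucine and phenylalanine pairs overlap in all groups.

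Summed over the 20 cytosolic genes, libraries held 2905.8 to 3128.9 CPM with siGOLM1-1, 2505.0 to 2685.2 CPM with siGOLM1-2 and 3177.7 to 3502.8 CPM with control siRNA. The groups did not overlap, and the means with siGOLM1-1 and siGOLM1-2 were 90.6% and 78.0% of the control mean. Summed over the 16 mitochondrial genes, libraries held 604.85 to 649.07 CPM with siGOLM1-1, 587.98 to 617.38 CPM with siGOLM1-2 and 736.81 to 818.96 CPM with control siRNA. Both knockdown groups were below control, at 80.8% and 77.0% of its mean, and overlapped each other. Under scaling by library totals alone the knockdown means stayed below control (cytosolic 2886.8, 2719.7 and 3308 CPM, mitochondrial 603.65, 629.04 and 774.6 CPM, in the order siGOLM1-1, siGOLM1-2 and control), but the order of the 2 siRNAs in the mitochondrial sum turned round.

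AARS alone made up 15.28% ± 1.76 of the cytosolic sum with siGOLM1-1, 6.715% ± 0.407 with siGOLM1-2 and 9.203% ± 0.947 with control siRNA (SD, n = 4 each). The ratio of the cytosolic to the mitochondrial sum was 4.79 ± 0.209 with siGOLM1-1, 4.32 ± 0.0854 with siGOLM1-2 and 4.27 ± 0.0616 with control siRNA. Without AARS it was 4.05 ± 0.113, 4.03 ± 0.096 and 3.88 ± 0.0918 in the same order of groups. The siGOLM1-1 libraries thus stood above all controls in the full ratio. Without AARS they had 3.89, 4.13, 4.13 and 4.06 against 3.76 to 3.96 with control siRNA, so only siGOLM1-1 library 1 overlapped the controls.

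**Figure D5:**
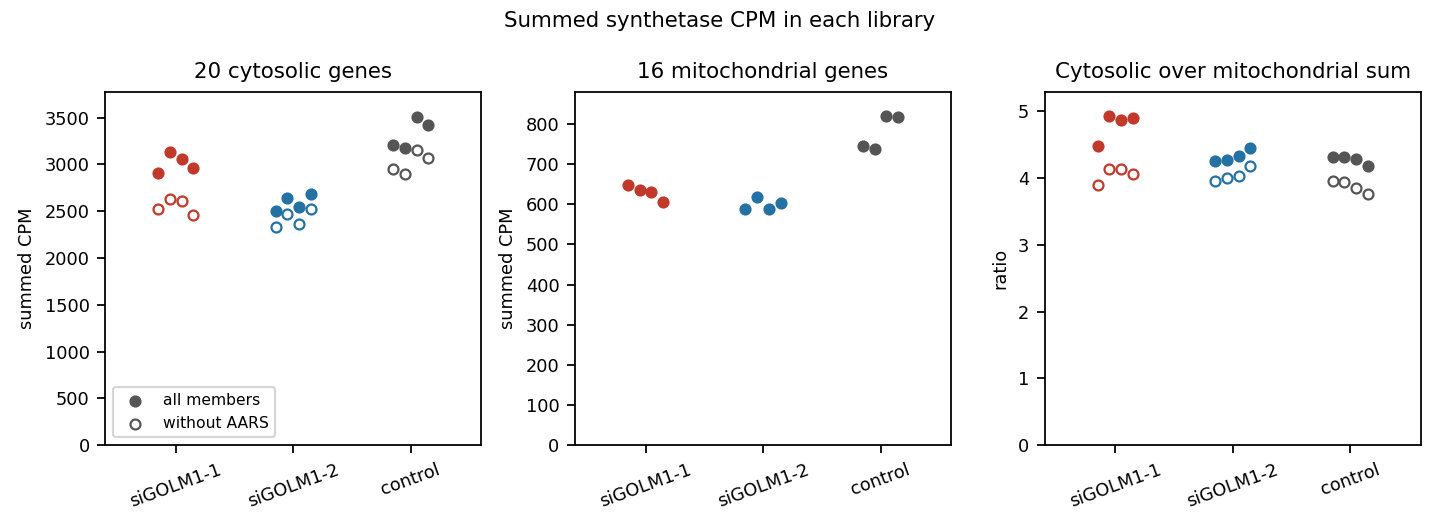
Summed CPM of the 20 cytosolic genes (left) and 16 mitochondrial genes (middle) and their ratio (right) in each library, siGOLM1-1 in red, siGOLM1-2 in blue and control siRNA in grey. Open points leave out AARS, without which the siGOLM1-1 ratios move down and siGOLM1-1 library 1 lies among the controls.

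Levels between genes were compared as CPM per kilobase of annotated exon (GENCODE release 29). Exons of all annotated transcripts were merged, which gave CARS 10037 bases and DARS 4014 bases. CARS thus ranked below DARS per kb, although its control mean was higher, at 67.864 against 63.104 CPM. The annotation behind the counts is not given, so the order of genes depends on this choice of length. With control siRNA the cytosolic genes had a median of 30.83 CPM per kb, from 6.761 for CARS to 68.25 for AARS, and the mitochondrial genes a median of 5.095, from 1.621 for SARS2 to 74.71 for IARS2. The mean of IARS2 was above that of every cytosolic gene with control siRNA, but IARS2 (74.71 ± 2.8) and AARS (68.25 ± 9.97) overlap within 1 SD. IARS2 made up 38.98% ± 1.49 of the mitochondrial sum with siGOLM1-1, 36.78% ± 0.995 with siGOLM1-2 and 39.98% ± 0.877 with control siRNA (SD, n = 4 each). After AARS in the cytosolic order with control siRNA came IARS at 50.46 ± 1.45, KARS at 48.34 ± 2.46 and NARS at 47.66 ± 1.45 CPM per kb (SD, n = 4 each), neighbours that overlap within 1 SD for KARS and NARS and for IARS and KARS. After IARS2 in the mitochondrial order came HARS2 at 16.66 ± 1.1, YARS2 at 14.92 ± 1.12 and EARS2 at 13.8 ± 1.05, each overlapping the next within 1 SD. With siGOLM1-1 the medians were 29.65 for the cytosolic and 4.28 for the mitochondrial genes, and with siGOLM1-2 they were 24.84 and 4.595.

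Genes that act beside the synthetases gave a mixed picture. Of 11 tested genes of cytosolic elongation and tRNA handling, 5 were higher and none lower with siGOLM1-1, and none was higher and 2 were lower with siGOLM1-2. Over all genes 23.7% were higher and 23.8% lower with siGOLM1-1, and 21.8% were higher and 23.2% lower with siGOLM1-2, so the 2 lower genes with siGOLM1-2, 18.2% of the list, were below the background. XPOT, the export receptor that carries tRNAs out of the nucleus, rose with siGOLM1-1 (0.67, adjusted p = 1e-05), as did EEF1A1, which delivers charged tRNAs to the ribosome (0.56, adjusted p = 0.000357). EEF1A1 fell with siGOLM1-2 (-0.30, adjusted p = 0.0203). SECISBP2, needed to insert selenocysteine, rose with siGOLM1-1 (0.46, adjusted p = 2e-05) and fell with siGOLM1-2 (-0.35, adjusted p = 0.000219). EEF1G had no counts in any library and was not tested, and many elongation factor genes have near-identical copies elsewhere in the genome, so their counts are uncertain.

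Of 19 genes of mitochondrial tRNA charging and translation, 1 was higher and 10 were lower with siGOLM1-1 (median log2 fold change -0.22), and 1 was higher and 9 were lower with siGOLM1-2 (median -0.18). The lower genes were 52.6% and 47.4% of the list, against 23.8% and 23.2% of all genes. The higher gene was MTFMT in each, which formylates the initiator methionine tRNA (0.63 with siGOLM1-1, adjusted p = 1.29e-05, and 0.59 with siGOLM1-2, adjusted p = 3.1e-05). MRRF, the mitochondrial ribosome recycling factor, fell with siGOLM1-1 (-1.11, adjusted p = 2.05e-08) and with siGOLM1-2 (-0.61, adjusted p = 5.38e-06). TRMU, which thiolates mitochondrial tRNAs, fell likewise (-0.56 and -0.36, adjusted p = 6.17e-06 and 0.000274).

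Of 28 other genes of the ATF4 amino acid response, 19 were higher and 3 lower with siGOLM1-1 (median log2 fold change 0.63), and 8 were higher and 10 lower with siGOLM1-2 (median -0.05). The higher genes were 67.9% of the list with siGOLM1-1 and 28.6% with siGOLM1-2, against 23.7% and 21.8% of all genes, and the lower genes 10.7% and 35.7%, against 23.8% and 23.2%. SESN2, a stress-induced inhibitor of mTORC1, rose with siGOLM1-1 (1.25, adjusted p = 4.1e-08) and with siGOLM1-2 (1.11, adjusted p = 2.21e-07). VLDLR, a lipoprotein receptor, rose with siGOLM1-1 (1.16, adjusted p = 1.51e-07) and fell with siGOLM1-2 (-0.85, adjusted p = 3.79e-06), as AARS did. PHGDH, the first enzyme of serine synthesis, fell with siGOLM1-1 (-1.47, adjusted p = 2.62e-07) and with siGOLM1-2 (-1.45, adjusted p = 5.45e-07).

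By size, 5 cytosolic genes (AARS, FARSB, LARS, VARS and WARS) and 4 mitochondrial genes (MARS2, NARS2, TARS2 and VARS2) differed by 1.5-fold or more with siGOLM1-1, where 30.5% of all genes did, and VARS and MARS2 by 2-fold or more, where 12.7% did. With siGOLM1-2 they were AARS, FARSB, IARS and MARS and, of the mitochondrial genes, VARS2, where 27.5% of all genes did, and 0 members differed by 2-fold, where 11.3% did. In the authors' deposited tables of both comparisons, made with DESeq2, 36 of 36 members had the same call with siGOLM1-1 and 35 of 36 with siGOLM1-2. The exception was GARS, which the authors' deposited table did not call.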

How the data were processed

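Per the labels' protocols, poly(A) libraries were made with a kit that marks strand and sequenced as read pairs. Per the submitters' processing notes, bcl2fastq 2.20, STAR 2.7.3 and DESeq2 1.24.0 were used, with the build hg19. The read counter, annotation release and strand setting are not given in the sources used here. The deposited values used were raw counts per gene, with library totals of 41617042 to 71344718. The authors' deposited tables also give mean normalised count signal, log2 fold changes, a Wald score and p-values from DESeq2, of which log2 fold changes and adjusted p-values were compared with the results here.

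Counts were tested with edgeR 4.0.16 (R 4.3.3): filterByExpr, TMM scaling, and a robust quasi-likelihood fit over all 12 libraries with 9 residual degrees of freedom. P-values were adjusted by Benjamini-Hochberg over the 17532 genes tested and called at 0.05, and the common biological coefficient of variation was 0.146. All 36 members passed the filter. The fit was tested on simulated data. Counting precision is set by library totals, and intervals cover only the spread between libraries. The members, lists and motifs were chosen with earlier results of these data known. Besides GOLM1 and all members, at most 4 genes per further list and comparison could be named, those with the smallest p, and genes sharing a promoter window with a member. DDIT3, ARHGAP9 and GTF2H4 are also named, for exon bases shared with a member. The fit did not pair libraries by replicate number. Same-number deviations correlated at -0.29 to 0.452, and 5 of 12 pairs passed 0.1, which does not settle whether some numbers were paired. No 2 libraries of a group agreed within sampling noise. Alternatives were DESeq2 1.42.0, other scalings and filters, only the groups compared, a replicate block, each control pair, and each library left out.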

Additional observations from a re-analysis of the deposited data

Results flagged for a closer look

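Of 165 sets of 4 libraries examined, 9 had 1 library farther from the other 3 than Dixon's critical value for 4 samples allows, where chance gives about 1 in 20. Of these, 4 sit in siGOLM1-2 library 4: CARS had 80.36 CPM there against 71.41 to 72.56 CPM in the other 3 libraries, CARS2 50.48 CPM against 37.76 to 39.22, HARS2 45.4 CPM against 42.12 to 42.55, and EARS2 58.53 CPM against 61.81 to 62.18. IARS2 had 235.9 CPM in siGOLM1-2 library 2 against 214.0 to 216.8 CPM in the others. GOLM1 had 37.46 CPM in siGOLM1-1 library 4 against 38.71 to 38.93 CPM.

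The cytosolic over mitochondrial sum was 4.48 in siGOLM1-1 library 1 against 4.86 to 4.93 in the other siGOLM1-1 libraries. The log2 ratio of FARSA to FARS2 was 2.12 in siGOLM1-1 library 2 against 2.40 to 2.42, and that of VARS to VARS2 was 1.76 in siGOLM1-1 library 4 against 1.93 to 1.94. Leaving out siGOLM1-2 library 4 changed no call of CARS, CARS2, EARS2 or HARS2 against control. Between the siRNAs, however, the call of EARS2 as higher with siGOLM1-1 was lost without that library. It was lost under 9 of 15 alternatives in all.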

How the results depend on the processing

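No call of a member was reversed under any alternative, and GOLM1 stayed lower throughout. The medians between the siRNAs did change sign under scaling by library totals alone. Scaling by library totals alone moved the most values. It gave 3 cytosolic genes called higher with siGOLM1-2, medians of -0.27 (cytosolic) and -0.19 (mitochondrial) with siGOLM1-2, and summed CPM of 2886.8 (siGOLM1-1) and 2719.7 (siGOLM1-2) for cytosolic and 603.65 and 629.04 for mitochondrial genes. Between the siRNAs it gave 4 cytosolic and 1 mitochondrial gene called higher and medians of -0.030 (cytosolic) and -0.018 (mitochondrial). Over all genes it put 43.0% of calls with siGOLM1-1, 59.1% with siGOLM1-2 and 37.4% between the siRNAs on the higher side, against 49.8%, 48.4% and 51.2% with TMM. Between the siRNAs, 1 mitochondrial gene was called higher with no filter on low counts, with only the groups compared, and with the replicate block, against 3. The replicate block called 8389, 7929 and 9614 genes in the 3 comparisons, against 8333, 7885 and 9541 without it, and with it FARSA was called lower with siGOLM1-1 (adjusted p = 0.0479).

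Against control libraries 1 and 2 alone, the medians with siGOLM1-1 were -0.094 (cytosolic) and -0.14 (mitochondrial), and 1 cytosolic gene was called higher with siGOLM1-2. Against control libraries 3 and 4 alone, 1 cytosolic gene was called higher with siGOLM1-1, and the mitochondrial medians were -0.32 with siGOLM1-1 and -0.34 with siGOLM1-2. Leaving out 1 library at a time gave 1 to 3 cytosolic genes called higher with siGOLM1-1 (1 without control library 1, control library 2 or siGOLM1-1 library 2) and 1 to 4 mitochondrial genes called higher between the siRNAs (1 without siGOLM1-2 library 1). The cause of these shifts was not tested. For the 36 members, 1642 alternative values kept their side of the threshold. Those values also kept their direction or, where there was no call, shifted by less than 1 SE. Another 80 lost a call, 26 gained one and 16 changed sign by at least 1 SE without a call. SARS2 and EEF1E1, with 157 to 353 and 133 to 352 counts per library, had fewer counts on average than the other members and scaffolds, which limits their precision.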
